A study of Mus musculus with 77 samples.

Results

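The astrocyte libraries were 12 of the 77 libraries of a study of mouse cerebral white matter, in which RNA of astrocytes, OPC, EC, pericytes and microglia was sequenced after stroke and in controls. All 12 columns of the astrocyte count table were used, and the members were chosen by their titles, which name 6 of them as stroke and 6 as control. The stroke libraries carry the numbers 3, 4, 7, 8, 11 and 12, and the control libraries the numbers 1, 2, 5, 6, 9 and 10. Both groups were labelled as astrocytes of cerebral white matter and differ in the labels only by condition. The sources used here give no strain, genotype, age, sex or time after stroke, and neither how the stroke was made nor how the cells were isolated. No label says whether the 6 libraries of a group came from separate animals, so the p-values measure the spread between these libraries, which may be technical.

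Astrocytes are the glial cells that take up glutamate, buffer potassium and water, supply neurons with lactate and cholesterol, and secrete proteins that act on synapses. Near a stroke they become reactive: intermediate filament genes rise, some of the cells divide, and a glial scar forms around the core. Several programs have been described in such cells, among them a pan-reactive set, sets named A1 and A2 after inflammation and ischemia, and a set driven by interferon.

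Levels are given in CPM, a gene's counts relative to the library total on a common scale, with totals adjusted by edgeR's trimmed mean of M-values. Where 3 levels follow each other they are the lowest, the median and the highest of a group's 6 libraries. Fold changes are log2 values of stroke over control from edgeR's quasi-likelihood fit of the 12 libraries, with their standard error (SE) and the Benjamini-Hochberg adjusted p over all genes tested; a gene passed at an adjusted p under 0.05. "Rose" and "fell" are used of genes that passed. Rankings by fold or by difference in mean CPM left out predicted genes, pseudogenes, clone-named genes and genes without a symbol.

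The libraries held 43367636 to 64557642 counts, 46390214 to 52457978 in stroke and 43367636 to 64557642 in control, with 18079 to 20341 genes at 10 or more counts. Libraries 1 to 8 and 9 to 12 differed in Lars2. Its level was 3169 to 4433 CPM in the 8 libraries of the first class. In the 4 of the second it was 900 to 1456 CPM. In a fit that also held the condition, 1099 genes passed for the class. Each class held as many stroke as control libraries. The largest axis of spread between libraries, principal component 1 (34.6% of the variance), crossed these classes. Control 6 (25.7) and stroke 8 (25.2) lay at its high end with control 10 (59.2), stroke 11 (49.9) and stroke 12 (103.5). Control 9 lay at -5.8. The fits within classes therefore do not hold this axis fixed. Stroke 12 and control 10 had the lowest median correlation with their own group, 0.931 and 0.939. Control 1 had the highest level of several reactive genes among the controls, with values given beside each of them.

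The label was checked against 16 astrocyte marker genes. In a common scaling of the 4 cell types they summed to 31605 ± 7733 CPM in stroke and 33288 ± 7948 CPM in control astrocyte libraries (SD, n = 6 each), while the means of the OPC, EC and pericyte groups ran between 2683 and 4004 CPM. In the scaling of the astrocyte libraries alone the sum was 18913 to 32695 CPM in stroke and 22094 to 32268 CPM in control, and none of the 16 genes passed with edgeR, DESeq2 or limma voom, with 1 at an unadjusted p under 0.05. The lowest sum was that of stroke 12.

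Markers of other cells were present, and those of microglia and neurons moved with stroke. The 12 microglia markers summed to 1601 ± 210 CPM in stroke and 605 ± 70.6 CPM in control (SD, n = 6 each), with 1422 to 1974 CPM against 490 to 681 CPM, and 11 of the 12 rose. The 12 neuron markers summed to 1487 ± 398 CPM in stroke and 2958 ± 324 CPM in control, with 885 to 2110 CPM against 2578 to 3477 CPM, and 9 of the 12 fell. In bulk samples fewer cells of a type and less RNA per cell cannot be told apart. Mature oligodendrocyte markers summed to 5758 ± 1206 CPM in stroke and 5621 ± 2132 CPM in control, and none of the 12 passed with any of the 3 tools or reached an unadjusted p under 0.05. Markers of monocytes and border macrophages summed to 11.9 to 37.3 CPM in stroke and 1.95 to 3.85 CPM in control. Of 7 tested 5 rose and 1 fell, and 9 of the 11 members had a mean under 1 CPM. Ms4a7 alone averaged 11.5 CPM in stroke, where the sum averaged 19.1 CPM. Neutrophil markers summed to 29.1 to 64.0 CPM in stroke and 5.63 to 22.0 CPM in control, but only Csf3r was high enough to be tested, and S100a9 was at 0 in every library. Sums of lymphocyte markers were 4.68 to 7.66 CPM in stroke and 3.79 to 6.23 CPM in control; of 3 tested none passed with edgeR, while 2 were higher with each of DESeq2 and limma voom and 2 had an unadjusted p under 0.05. Sums of endothelial, pericyte, fibroblast, ependymal and OPC markers overlapped between the groups, with 1 of 13, 1 of 12, 3 of 9, 1 of 7 and none higher and 1 of 10 OPC markers lower. Over all genes tested 5.63% rose and 4.68% fell.

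**Figure D1:**
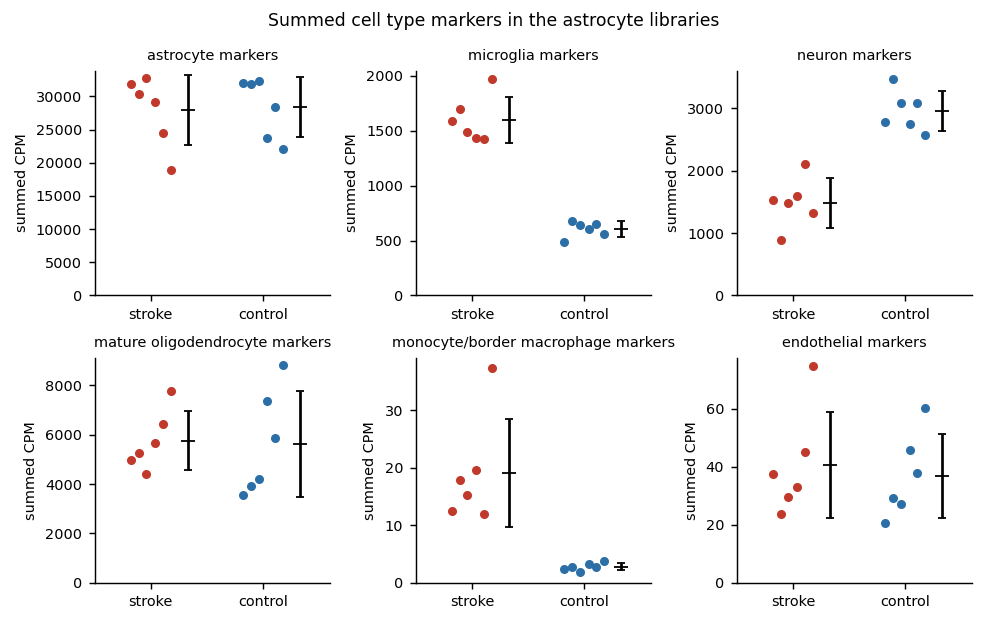
Summed CPM of 6 marker lists in the astrocyte libraries, stroke on the left and control on the right of each panel; points are libraries, and the bar beside them is the mean with its SD (n = 6). Microglia and neuron markers separate the groups (1422 to 1974 against 490 to 681 CPM, and 885 to 2110 against 2578 to 3477 CPM), and astrocyte markers overlap.

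Of 18796 genes tested, 1059 rose (5.63%) and 880 fell (4.68%) in stroke, together 10.3% of the genes, and 1387 genes (7.38%) had stroke and control libraries that did not overlap. The median log2 fold change of all genes was -0.04. A log2 fold change of 1 or more was reached by 759 of the higher genes, and one of -1 or less by 303 of the lower genes. The count of higher genes was 879 to 1125 in the 12 fits that each left out 1 library. The count of lower genes was less steady, at 500 without control 2, 517 without stroke 4, 532 without stroke 7 and 548 without stroke 3. Of the genes called, 806 higher and 440 lower ones passed in each of those 12 fits. Within libraries 1 to 8 alone, 921 of the 1059 and 787 of the 880 passed. Within libraries 9 to 12, with 2 in each group, 213 and 18 passed, and 1056 and 880 kept their direction. These fits share libraries with the one they are set against. Within the classes the median log2 fold change of 5 lists had the same sign, 1.42 in libraries 1 to 8 and 1.76 in libraries 9 to 12 for interferon genes, 1.47 and 0.96 for cell cycle genes, 0.67 and 1.17 for pan-reactive genes, 1.30 and 1.52 for microglia markers and -1.25 and -0.69 for neuron markers. A list with a median near 0 could differ in sign, as did the astrocyte markers with 0.07 and -0.22.

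**Figure D2:**
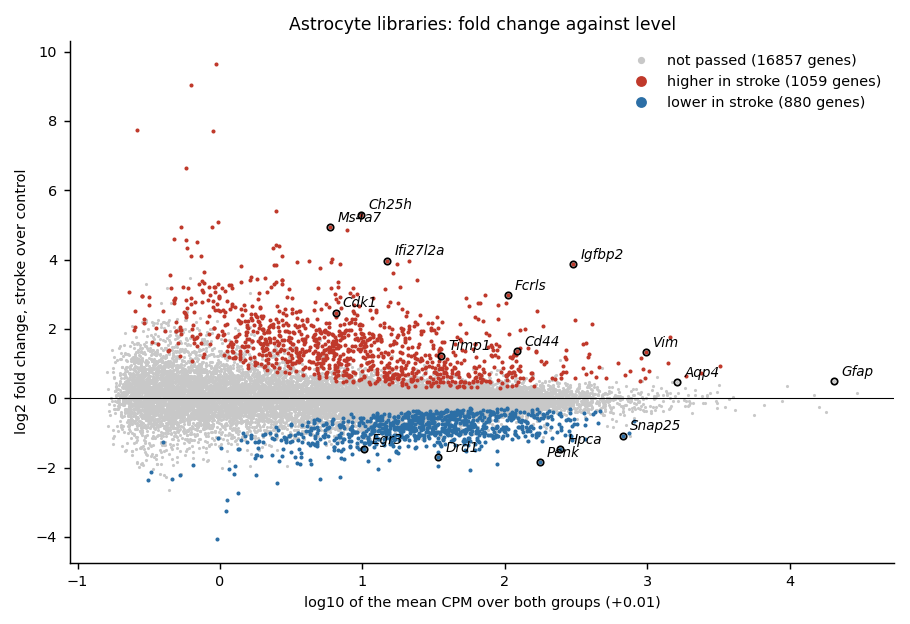
Log2 fold change of stroke over control (vertical axis) against the log10 mean CPM of both groups (horizontal axis) for the 18796 genes tested; red points rose (1059), blue points fell (880), and named genes are circled. Igfbp2 and Ch25h lie far above 0, Penk and Drd1 below it, and Gfap is among the genes of highest level without having passed.

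The pan-reactive genes rose in part. Of 13 tested, 4 rose and none fell, where 5.63% of all genes rose, with a median log2 fold change of 0.69 against -0.04 over all genes. The lists and members were chosen with earlier results of these data known. Here and below the share of all genes is therefore a reference and not a test. Vim, the intermediate filament gene vimentin, had 898, 1407 and 1764 CPM in stroke and 396, 500.0 and 864 CPM in control libraries (log2 fold change 1.33 ± 0.20 SE, edgeR adjusted p = 0.000667). All stroke libraries lay above all control libraries. Cd44, the hyaluronan receptor, had 102, 192 and 233 CPM in stroke and 35.4, 60.9 and 120.0 CPM in control (log2 fold change 1.36 ± 0.30 SE, edgeR adjusted p = 0.00837). Its groups overlapped through control 1, the highest control, which lay above stroke 11 and stroke 12. Timp1, a metalloproteinase inhibitor secreted by reactive astrocytes, had 32.8, 51.6 and 62.0 CPM in stroke and 11.7, 18.3 and 40.9 CPM in control (log2 fold change 1.23 ± 0.26 SE, edgeR adjusted p = 0.0076), again with control 1 inside the range of stroke.

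The fourth was Cxcl10, an interferon-induced chemokine, with 37.1, 59.8 and 114 CPM in stroke and 4.21, 22.8 and 37.6 CPM in control (log2 fold change 1.55 ± 0.43 SE, edgeR adjusted p = 0.032). It did not pass without any 1 of control 2, control 9, stroke 3, stroke 8 or stroke 12, at adjusted p of 0.0579 to 0.0691. Within libraries 1 to 8 its edgeR adjusted p was 0.0502.

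Gfap, the gene of glial fibrillary acidic protein by which reactive astrocytes are usually recognised, did not pass. Its levels were 11984, 27062 and 30656 CPM in stroke and 10182, 16018 and 26506 CPM in control (log2 fold change 0.50 ± 0.26 SE, edgeR adjusted p = 0.285). The groups overlapped: stroke 12 was the second lowest of all libraries and control 1 exceeded 3 stroke libraries. Per kilobase of exon the mean level was 5680 CPM in stroke and 4019 CPM in control, against 296 and 117 CPM for Vim. Without control 1 and stroke 12, a choice made after the values were seen, the log2 fold change of Gfap was 0.83 (edgeR adjusted p = 0.0347). Lcn2, the iron-binding lipocalin, also turned on control 1: 6.77, 15.6 and 23.6 CPM in stroke stood against 1.7, 4.46 and 46.1 CPM in control, and the highest value of all 12 was that of control 1; the other 5 controls lay below every stroke library. Its log2 fold change was 0.52 (edgeR adjusted p = 0.709), and without control 1 it was 2.04 (edgeR adjusted p = 0.00259). Serpina3n, a serine protease inhibitor, had 414, 685 and 751 CPM in stroke and 154, 302 and 624 CPM in control, a log2 fold change of 0.88 (edgeR adjusted p = 0.0655); it passed under 9 of the other settings, among them DESeq2 and the fit without control 1.

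The sets named after inflammation and ischemia were both partly higher. Of the A1 set 5 of 11 rose and of the A2 set 6 of 12, where 5.63% of all genes tested rose. None fell in either, and the medians were 0.72 and 0.77. Of those calls, 4 and 4 were kept in every fit that left out 1 library. The microglia marker sum moved the same way, at 1601 CPM in stroke and 605 CPM in control, and its part in the result was not tested. In the A1 set, Psmb8, an immunoproteasome subunit, had 34.1, 47.5 and 56.5 CPM in stroke and 13.9, 22.2 and 30.7 CPM in control (log2 fold change 1.08 ± 0.17 SE, edgeR adjusted p = 0.00104). H2-T23 and H2-D1, of the major histocompatibility complex, rose by 1.20 and 0.84 with groups that did not overlap (edgeR adjusted p = 0.000714 and 0.00307). In the A2 set, Tm4sf1, a tetraspanin-like membrane protein, had 76.1, 117 and 141 CPM in stroke and 24.8, 43.2 and 83.2 CPM in control (log2 fold change 1.25 ± 0.24 SE, edgeR adjusted p = 0.00362), and overlapped. Clcf1, a cytokine of the gp130 family, rose by 1.25 and Sphk1, which makes sphingosine 1-phosphate, by 1.42 (edgeR adjusted p = 0.00865 and 0.0104).

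Cytoskeletal genes rose in part. Of 18, 9 rose and none fell (median 0.75), where 5.63% of all genes tested rose. Of the 9 calls, 7 were kept in each fit that left out 1 library. Anxa3, a calcium- and phospholipid-binding annexin, changed most, with 94.6, 102 and 114 CPM in stroke and 11.9, 20.2 and 31.7 CPM in control (log2 fold change 2.34 ± 0.19 SE, edgeR adjusted p = 5.05e-06). The groups stood far apart and the stroke libraries varied little. Nes, the intermediate filament gene nestin of neural progenitors, had 10.8, 15.1 and 19.3 CPM in stroke and 5.15, 6.2 and 7.67 CPM in control (log2 fold change 1.28 ± 0.17 SE, edgeR adjusted p = 0.000215), without overlap. Lgals1, S100a11 and Tagln2 rose by 1.34, 1.39 and 1.38 (edgeR adjusted p = 0.00165, 0.00167 and 0.000407). The microglia marker sum of 1601 CPM in stroke and 605 CPM in control moved the same way, and its part in the result was not tested.

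**Figure D3:**
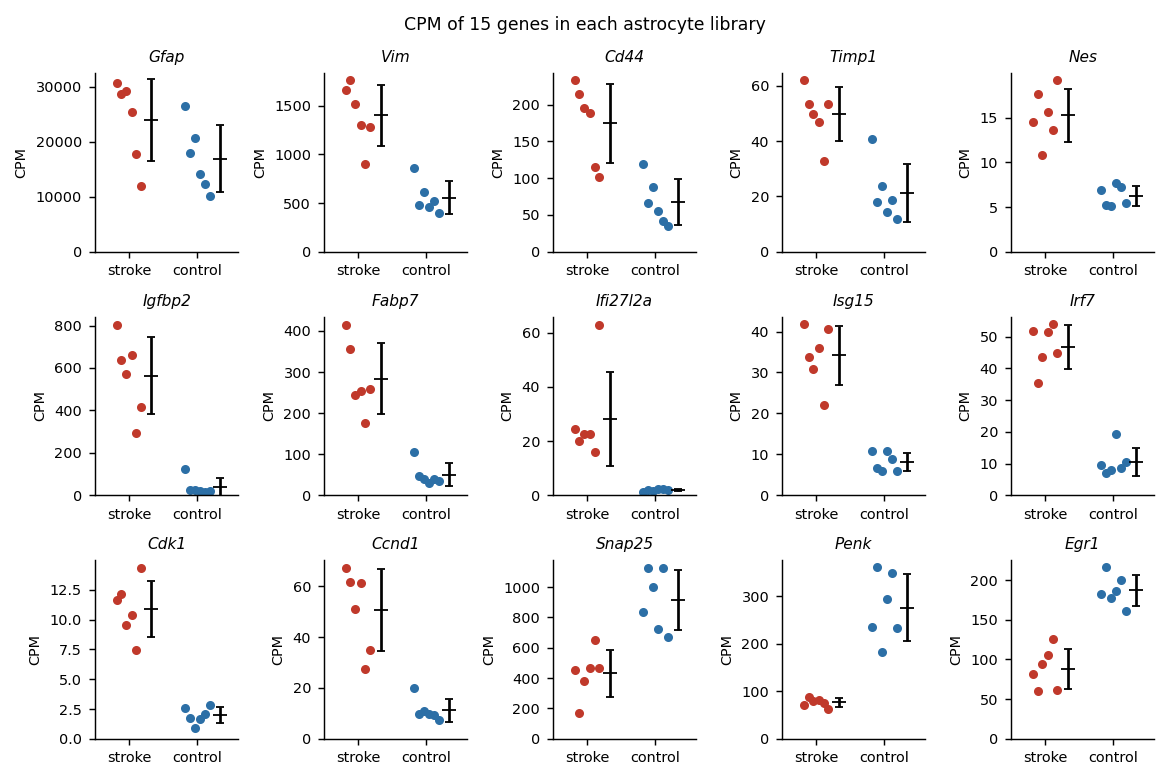
CPM of 15 genes in each astrocyte library, stroke (red) left and control (blue) right in each panel, with the mean and SD beside the points (n = 6 each). Igfbp2, Fabp7, Ifi27l2a, Isg15, Cdk1 and Ccnd1 are high in stroke and Penk and Egr1 low without overlap, while the groups of Gfap overlap.

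Igfbp2, a binding protein of the insulin-like growth factors, was among the 15 largest increases by log2 fold change of genes with a mean of at least 10 CPM. It had 294, 604 and 801 CPM in stroke and 14.5, 22.6 and 125 CPM in control (log2 fold change 3.87 ± 0.53 SE, edgeR adjusted p = 0.000312). The highest control, 125 CPM, was control 1, and the other 5 lay between 14.5 and 26.9 CPM; all 6 stroke libraries lay above it. With 1 library left out at a time, the log2 fold change of Igfbp2 was 3.73 to 4.75 (edgeR adjusted p = 1.66e-06 to 0.0011). The highest was that without control 1. The gene spans chr1:72824503-72852474 on the plus strand of GRCm38 (GENCODE M21) and had a mean of 305 CPM per kilobase of exon in stroke and 20.9 in control. Igfbp3, another of the binding proteins, had 58.8, 89.7 and 142 CPM in stroke and 8.11, 10.4 and 27.6 CPM in control (log2 fold change 2.88 ± 0.32 SE, edgeR adjusted p = 5.65e-05), with the same control on top. Igf1 itself had 8.08, 13.3 and 31.3 CPM in stroke and 2.99, 3.74 and 5.15 CPM in control (log2 fold change 1.99 ± 0.28 SE, edgeR adjusted p = 0.000449). Igf1 is known in the injured brain from microglia, and the microglia marker sums above moved the same way; their part in the result was not tested.

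Of 19 growth factor genes tested, 7 rose and none fell (median 0.34), where 5.63% of all genes tested rose. Hbegf, an epidermal growth factor receptor ligand, had 48.7, 75.7 and 104 CPM in stroke and 21.5, 28.2 and 40.2 CPM in control (log2 fold change 1.37 ± 0.19 SE, edgeR adjusted p = 0.000364), without overlap. Bdnf, the neurotrophin, had 7.24, 9.18 and 12.6 CPM in stroke and 4.84, 5.26 and 6.5 CPM in control (log2 fold change 0.78 ± 0.16 SE, edgeR adjusted p = 0.00693). Vegfa, the endothelial growth factor induced by hypoxia, had 36.5, 54.8 and 65.9 CPM in stroke and 57.8, 65.5 and 79.0 CPM in control, and did not pass (log2 fold change -0.30, edgeR adjusted p = 0.251).

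Fabp7, a brain lipid-binding protein of radial glia and of immature astrocytes, had 177, 256 and 415 CPM in stroke and 30.9, 39.6 and 105 CPM in control (log2 fold change 2.52 ± 0.31 SE, edgeR adjusted p = 0.000121). No control reached the lowest stroke library, and control 1 was again the highest control. With Nes it made up the 2 members of 18 neural stem and Notch genes that rose, and 1 fell. The list's median was -0.24, and of all genes tested 5.63% rose and 4.68% fell.

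Few genes of astrocyte homeostasis passed. Of 15 genes of glutamate and GABA handling none rose and 1 fell, of 16 of potassium, water and ion transport 1 rose, and of 14 of gap junctions and calcium signalling 1 rose; the medians were -0.25, -0.01 and 0.13. These shares are near the 5.63% and 4.68% of all genes. Slc1a2, the main glutamate transporter, had 1449.7, 1857 and 2021 CPM in stroke and 1533, 2147 and 2496 CPM in control (log2 fold change -0.22 ± 0.14 SE, edgeR adjusted p = 0.38). Glul, glutamine synthetase, had 951, 1162 and 1197 CPM in stroke and 1013, 1299 and 1653 CPM in control (log2 fold change -0.19 ± 0.13 SE, edgeR adjusted p = 0.46). Both overlapped between the groups. Aqp4, the water channel of astrocyte endfeet, had 1127, 2041 and 2422 CPM in stroke and 880.5, 1352 and 1753 CPM in control; its log2 fold change of 0.46 did not pass (edgeR adjusted p = 0.197), but did within libraries 1 to 8 at 0.48 (edgeR adjusted p = 0.03). Kcnj10, the inwardly rectifying potassium channel Kir4.1, was the member that rose, with 74.4, 92.8 and 121 CPM in stroke and 46.7, 57.6 and 78.8 CPM in control (log2 fold change 0.70 ± 0.15 SE, edgeR adjusted p = 0.00671). Control 9 lay above stroke 11, the lowest stroke library.

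Metabolic support genes likewise had 1 of 15 higher and none lower, where 5.63% of all genes tested rose. That gene was Slc16a3, a lactate and pyruvate transporter, with 8.53, 9.59 and 11.0 CPM in stroke and 1.85, 2.6 and 4.05 CPM in control (log2 fold change 1.81 ± 0.19 SE, edgeR adjusted p = 3.49e-05), without overlap. Of 19 hypoxia and glycolysis genes 2 rose, and their median was -0.08. Hk2, a hexokinase, had 10.7, 16.0 and 31.8 CPM in stroke and 3.9, 5.15 and 6.42 CPM in control (log2 fold change 1.75 ± 0.24 SE, edgeR adjusted p = 0.00034). Its top stroke value was that of stroke 12. Adm, the vasodilator peptide adrenomedullin, rose by 1.16 (edgeR adjusted p = 0.00848). The microglia marker sum moved the same way as Slc16a3, Hk2 and Adm, at 1601 CPM in stroke and 605 CPM in control. Its part in these increases was not tested. Of 22 genes of cholesterol synthesis and export 1 rose, a share near the 5.63% of all genes tested. A log2 fold change above 0 was found in 4 of the 22 (median -0.18) and in 8581 of all 18796 genes. The gene that rose was Abca1, the cholesterol exporter, with 75.1, 142 and 174 CPM in stroke and 60.8, 80.3 and 91.9 CPM in control (log2 fold change 0.75 ± 0.18 SE, edgeR adjusted p = 0.0144).

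Nearly all interferon-induced genes rose. Of 22, 20 rose and none fell, where 5.63% of all genes rose, and the median was 1.54; 19 of the 20 calls were kept in each fit that left out 1 library, and all 20 within libraries 1 to 8. Interferons bind surface receptors and act through transcription factors of the STAT and IRF families, which bind a DNA element of repeated GAAA cores in the promoters of their targets. Stat2, one of these factors, had 28.1, 49.1 and 67.8 CPM in stroke and 16.4, 27.1 and 39.3 CPM in control. Its edgeR adjusted p was 0.051 at a log2 fold change of 0.74. It passed with DESeq2 (adjusted p = 0.00813) and limma voom (adjusted p = 0.0497). In 9 of the 12 edgeR fits that left out 1 library it did not pass. Irf7, a transcription factor that amplifies the response, had 35.5, 48.2 and 53.9 CPM in stroke and 6.88, 9.06 and 19.3 CPM in control (log2 fold change 2.16 ± 0.23 SE, edgeR adjusted p = 3.5e-05).

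Among the targets, Ifi27l2a changed most, with 16.1, 22.5 and 62.8 CPM in stroke and 1.33, 1.84 and 2.22 CPM in control (log2 fold change 3.96 ± 0.33 SE, edgeR adjusted p = 6.9e-06). The top stroke value is that of stroke 12, and the other 5 lay at 24.6 CPM or less, still above every control. Oas1a, an antiviral oligoadenylate synthetase, had 18.7, 19.8 and 24.2 CPM in stroke and 2.09, 2.67 and 4.35 CPM in control (log2 fold change 2.89 ± 0.18 SE, edgeR adjusted p = 1.31e-06). Isg15, a ubiquitin-like modifier, had 22.0, 34.8 and 41.8 CPM in stroke and 5.85, 7.79 and 10.7 CPM in control (log2 fold change 2.07 ± 0.20 SE, edgeR adjusted p = 2.37e-05). Mx1, an antiviral GTPase, had 6.58, 7.71 and 12.6 CPM in stroke and 0.0771, 0.768 and 2.7 CPM in control (log2 fold change 3.18 ± 0.55 SE, edgeR adjusted p = 0.00195). With 1 library left out at a time, its log2 fold change was 2.98 to 3.83 (edgeR adjusted p = 0.000257 to 0.00552), and the highest was that without control 6. Stroke and control did not overlap for any of these targets. Rsad2, the antiviral enzyme viperin, and Ifit1, which binds foreign RNA, rose by 1.86 and 1.56 (edgeR adjusted p = 0.00229 and 0.00445), and Cmpk2 was the second member that did not pass (log2 fold change 0.65, edgeR adjusted p = 0.115). Microglia also express interferon-induced genes, and their marker sum was 1601 CPM in stroke and 605 CPM in control; its part in the result was not tested.

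The promoters of 4 of these targets are shown because they carry the GAAA repeat. They are the 250 bases before the transcript start, from RefSeq (GRCm38.p6), written in the direction of the gene. Capitals mark each match to GAAANNGAAA on either strand, where N is any base; neighbouring matches can overlap. Oas1a is at chr5:120907526-120907775, Isg15 at chr4:156200819-156201068 and Rsad2 at chr12:26456453-26456702, all on the minus strand, and Ifit1 is at chr19:34640639-34640888 on the plus strand.
Oas1a: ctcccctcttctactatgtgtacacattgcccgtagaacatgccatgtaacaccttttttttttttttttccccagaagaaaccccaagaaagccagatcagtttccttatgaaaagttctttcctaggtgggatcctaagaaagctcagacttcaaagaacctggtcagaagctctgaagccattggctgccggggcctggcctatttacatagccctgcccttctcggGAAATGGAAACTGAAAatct
Isg15: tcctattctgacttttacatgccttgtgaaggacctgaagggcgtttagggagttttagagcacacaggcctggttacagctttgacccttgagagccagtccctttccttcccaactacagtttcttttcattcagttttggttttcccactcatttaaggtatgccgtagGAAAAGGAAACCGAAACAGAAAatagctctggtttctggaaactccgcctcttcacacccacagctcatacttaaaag
Rsad2: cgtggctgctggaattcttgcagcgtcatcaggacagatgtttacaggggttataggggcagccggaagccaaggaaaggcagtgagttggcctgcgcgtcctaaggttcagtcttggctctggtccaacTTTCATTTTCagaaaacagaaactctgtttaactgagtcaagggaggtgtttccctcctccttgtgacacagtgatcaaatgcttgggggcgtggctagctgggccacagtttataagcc
Ifit1: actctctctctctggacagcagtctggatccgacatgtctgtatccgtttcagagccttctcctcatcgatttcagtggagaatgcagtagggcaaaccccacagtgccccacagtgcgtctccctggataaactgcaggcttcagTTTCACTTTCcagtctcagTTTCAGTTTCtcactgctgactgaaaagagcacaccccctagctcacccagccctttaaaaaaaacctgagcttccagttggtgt
The match nearest the start began 14 bases before it in Oas1a, 66 in Isg15, 120 in Rsad2 and 85 in Ifit1. In windows of 300 bases, which add the first 50 bases of the transcript, the motif was in 9 of the 16 list members matched by symbol in the RefSeq promoter table, and in that of 3.99% of all 27025 symbols in the table, counting a symbol once if any of its windows held it. Of the 32851 windows 3.44% held it. The other 7 of the 16 held no match in these windows.

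Antigen presentation genes rose in 9 of 18 cases and fell in none (median 0.92), where 5.63% of all genes tested rose. Microglia express such genes too, and their marker sum was 1601 CPM in stroke and 605 CPM in control; its part in the result was not tested. B2m, the light chain of class I molecules, had 607, 842 and 1049.6 CPM in stroke and 305, 388 and 583 CPM in control (log2 fold change 1.03 ± 0.18 SE, edgeR adjusted p = 0.00195). H2-K1, a class I heavy chain, had 422, 498 and 649.6 CPM in stroke and 236, 295 and 358 CPM in control (log2 fold change 0.75 ± 0.13 SE, edgeR adjusted p = 0.00212). Neither overlapped. Reads of class I genes can be split among near-identical family members. Of the class II genes, H2-Ab1 had 16.0, 19.7 and 37.4 CPM in stroke and 3.17, 6.99 and 26.2 CPM in control and did not pass (log2 fold change 1.23, edgeR adjusted p = 0.0818); its highest control, control 1, lay far above the other 5, and without it the log2 fold change was 1.87 (edgeR adjusted p = 0.000729). Cd74, the invariant chain, had 16.1, 25.0 and 63.8 CPM in stroke and 8.82, 20.7 and 67.4 CPM in control (log2 fold change 0.29 ± 0.44 SE, edgeR adjusted p = 0.747), with the top control again control 1. Without control 1 the log2 fold change of Cd74 was 0.87 (edgeR adjusted p = 0.158).

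**Figure D4:**
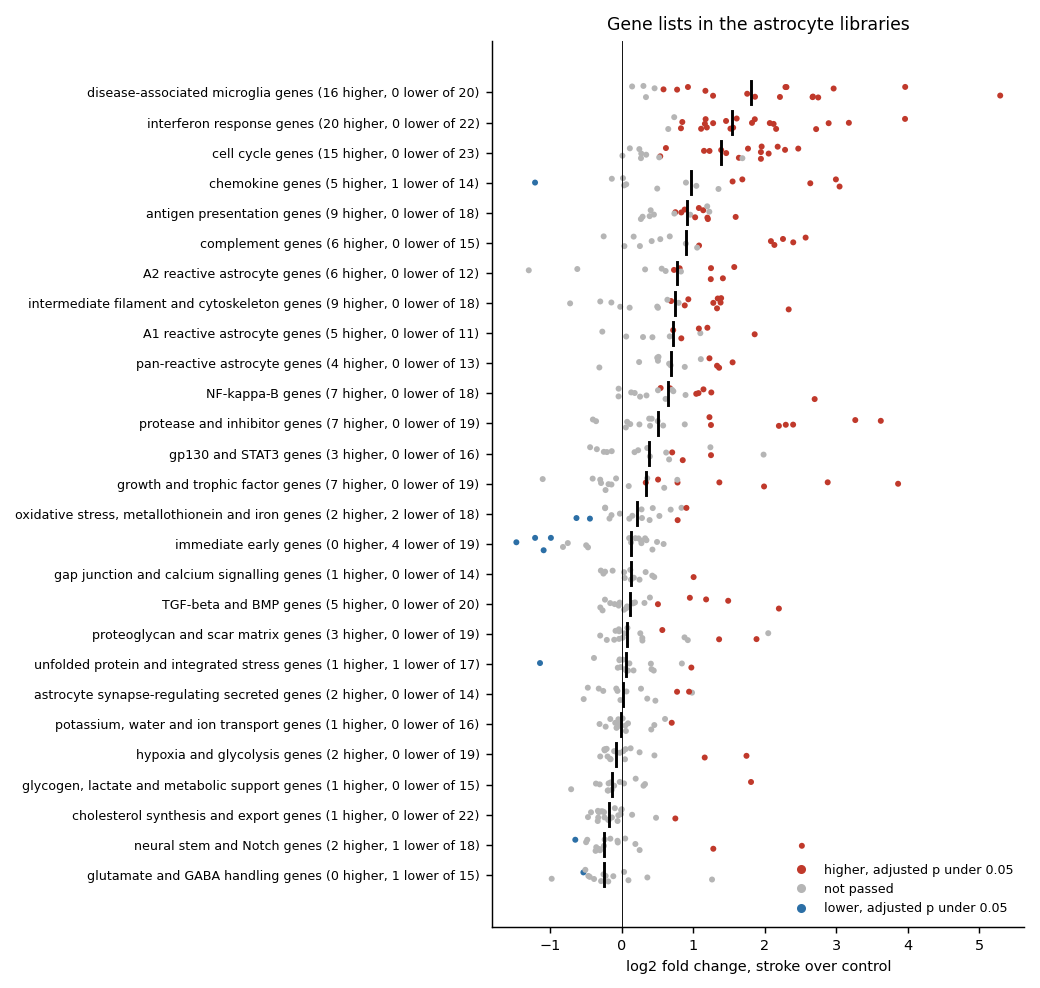
Log2 fold change of stroke over control for the tested members of 27 gene lists, ordered by their median (black bar); red members rose, blue fell and grey did not pass. Interferon response genes (20 of 22 higher), disease-associated microglia genes (16 of 20) and cell cycle genes (15 of 23) lie to the right, and lists of astrocyte homeostasis lie near 0. Over all genes tested 5.63% rose.

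Genes of reactive microglia were higher in the same libraries. Of 20 genes of the disease-associated microglia set 16 rose and none fell (median 1.81), where 5.63% of all genes tested rose. The microglia marker sum of 1601 CPM in stroke and 605 CPM in control moved with them, and its part in the result was not tested. Cst7, an inhibitor of cysteine proteases, had 27.1, 36.7 and 66.2 CPM in stroke and 1.4, 2.5 and 3.84 CPM in control (log2 fold change 3.96 ± 0.28 SE, edgeR adjusted p = 2.23e-06). Ch25h, which makes 25-hydroxycholesterol, had 13.2, 15.3 and 35.4 CPM in stroke and 0.0638, 0.432 and 0.888 CPM in control (log2 fold change 5.29 ± 0.52 SE, edgeR adjusted p = 2.36e-05), the largest fold among genes that passed with a mean of at least 10 CPM. Tyrobp, the signalling adaptor of Trem2, had 76.5, 94.1 and 306 CPM in stroke and 13.7, 16.1 and 21.6 CPM in control (log2 fold change 2.96 ± 0.33 SE, edgeR adjusted p = 5.13e-05), with stroke 12 on top. None of the 3 overlapped.

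The log2 fold changes of the 12 microglia markers ranged from 0.19 to 2.98. Fcrls, a surface receptor, had 155, 170.4 and 249.7 CPM in stroke and 18.3, 22.5 and 28.4 CPM in control (log2 fold change 2.98 ± 0.16 SE, edgeR adjusted p = 3.5e-07). Tmem119, a membrane protein of homeostatic microglia, had 101, 119 and 148 CPM in stroke and 31.0, 44.2 and 52.0 CPM in control (log2 fold change 1.49 ± 0.15 SE, edgeR adjusted p = 2.38e-05). P2ry12, the purinergic receptor, had 64.0, 74.6 and 105 CPM in stroke and 36.7, 46.9 and 54.1 CPM in control (log2 fold change 0.75 ± 0.14 SE, edgeR adjusted p = 0.00247). Sall1, a transcription factor of microglia, had 37.5, 45.5 and 53.0 CPM in stroke and 32.6, 42.2 and 43.8 CPM in control (log2 fold change 0.19 ± 0.12 SE, edgeR adjusted p = 0.387); it was the 1 marker of 12 that did not pass. Ms4a7, a macrophage gene, had 7.56, 10.3 and 21.2 CPM in stroke and 0.128, 0.333 and 0.666 CPM in control (log2 fold change 4.93 ± 0.40 SE, edgeR adjusted p = 5.05e-06), while Cd163, a scavenger receptor of border macrophages, fell, at 0.129, 0.251 and 0.427 CPM in stroke and 0.366, 0.955 and 2.23 CPM in control (log2 fold change -1.93 ± 0.47 SE, edgeR adjusted p = 0.0159).

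Complement and chemokine genes rose in part, where 5.63% of all genes tested rose and 4.68% fell. Of 15 complement genes tested 6 rose (median 0.90). C1qa, a subunit of the initiating complex that microglia are known to make, had 208, 289 and 461 CPM in stroke and 50.5, 70.7 and 87.4 CPM in control (log2 fold change 2.09 ± 0.19 SE, edgeR adjusted p = 1.41e-05). C3, which reactive astrocytes of the A1 type are known to make, had 15.6, 42.6 and 55.1 CPM in stroke and 17.7, 25.5 and 64.6 CPM in control (log2 fold change 0.26 ± 0.35 SE, edgeR adjusted p = 0.718), and C4b had 288, 744 and 795 CPM in stroke and 383, 656 and 831 CPM in control (log2 fold change 0.04 ± 0.23 SE, edgeR adjusted p = 0.944). Both overlapped. Of 14 chemokine genes 5 rose and 1 fell (median 0.97). Ccl3 and Ccl4, attractants of monocytes, rose by 3.00 and 2.64 (edgeR adjusted p = 2.38e-05 and 2.38e-05) and Ccl12 by 3.05 (edgeR adjusted p = 0.000115). The gene that fell was Cx3cl1, the ligand, known from neurons, of the microglial fractalkine receptor, with 105, 193 and 262 CPM in stroke and 347, 409 and 498 CPM in control (log2 fold change -1.21 ± 0.20 SE, edgeR adjusted p = 0.00127), without overlap. The microglia marker sum moved with the complement and chemokine genes that rose, and its part in them was not tested.

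Among genes that passed, the 2 largest increases by difference in mean CPM were those of lysosomal proteases. Both are also members of the disease-associated microglia list. The microglia marker sum moved the same way as the genes named here, at 1601 CPM in stroke and 605 CPM in control. Its part in these increases was not tested. Ctsb, a cysteine protease, had 3167, 4386 and 4814 CPM in stroke and 1507, 2275 and 2865 CPM in control (log2 fold change 0.93 ± 0.16 SE, edgeR adjusted p = 0.00159), and Ctsd, an aspartyl protease, 1639.6, 2268 and 2630.5 CPM in stroke and 485, 666 and 824 CPM in control (log2 fold change 1.76 ± 0.15 SE, edgeR adjusted p = 7.8e-06). Neither overlapped. Tmsb4x, an actin-binding peptide, had 1288, 1735 and 3306 CPM in stroke and 668, 969.7 and 1187 CPM in control (log2 fold change 1.02 ± 0.23 SE, edgeR adjusted p = 0.00935), with stroke 12 on top. Dhrs1, a short-chain dehydrogenase, had 839, 1228 and 1556 CPM in stroke and 352, 545 and 833 CPM in control (log2 fold change 1.17 ± 0.20 SE, edgeR adjusted p = 0.00153). Syt15, of the synaptotagmin family, had 4.6, 36.6 and 57.1 CPM in stroke and 1.31, 2.11 and 10.2 CPM in control (log2 fold change 3.22 ± 0.62 SE, edgeR adjusted p = 0.00384). Stroke 12 was its lowest stroke library, below control 1. With 1 library left out at a time, the log2 fold change of Syt15 was 3.02 to 3.93 (edgeR adjusted p = 0.000455 to 0.01). The highest was that without control 1.

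Cell cycle genes rose in 15 of 23 cases and fell in none (median 1.39), where 5.63% of all genes tested rose. Of the 15 calls, 14 were kept in each fit that left out 1 library. Ccnd1, the G1 cyclin D1, had 27.3, 56.2 and 67.1 CPM in stroke and 7.44, 9.69 and 19.9 CPM in control (log2 fold change 2.18 ± 0.27 SE, edgeR adjusted p = 0.000129). Cdk1, the kinase of mitotic entry, had 7.48, 11.0 and 14.3 CPM in stroke and 0.896, 1.94 and 2.81 CPM in control (log2 fold change 2.47 ± 0.26 SE, edgeR adjusted p = 3.41e-05). Mki67, the proliferation antigen, had 5.84, 7.95 and 10. CPM in stroke and 0.883, 1.07 and 5.27 CPM in control (log2 fold change 1.95 ± 0.44 SE, edgeR adjusted p = 0.0104). Top2a, a topoisomerase of dividing cells, and Ccnb2, a mitotic cyclin, rose by 1.96 and 2.29 (edgeR adjusted p = 0.00736 and 0.000498). No stroke library of these 5 genes fell to the level of a control. Pcna, the replication clamp, had 49.2, 55.3 and 67.7 CPM in stroke and 43.2, 50.7 and 68.0 CPM in control (log2 fold change 0.12 ± 0.12 SE, edgeR adjusted p = 0.626), and overlapped. The microglia marker sum moved the same way as these genes, and its part in the result was not tested.

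Among the genes with the largest falls were several of neurons. Penk, which encodes enkephalin, had 62.6, 77.9 and 87.5 CPM in stroke and 184, 265 and 361 CPM in control (log2 fold change -1.85 ± 0.16 SE, edgeR adjusted p = 9.8e-06). Tac1, which encodes substance P, had 10.5, 14.4 and 16.2 CPM in stroke and 31.3, 53.9 and 80.4 CPM in control (log2 fold change -1.96 ± 0.20 SE, edgeR adjusted p = 2.68e-05). Drd1, the D1 dopamine receptor, had 8.96, 15.5 and 25.8 CPM in stroke and 37.1, 54.5 and 63.0 CPM in control (log2 fold change -1.70 ± 0.25 SE, edgeR adjusted p = 0.000493). Drd2, the D2 dopamine receptor, fell too, with a log2 fold change of -1.61 (edgeR adjusted p = 0.000479). None of the 4 overlapped. Snap25, a neuronal protein of vesicle fusion, had 173, 460.0 and 649.7 CPM in stroke and 669.6, 921 and 1129 CPM in control (log2 fold change -1.08 ± 0.25 SE, edgeR adjusted p = 0.0119), also without overlap. Where 1 group averaged 10 CPM or more, the largest fall by fold was that of Cd4, known as a T cell co-receptor, with 0.0552, 2.63 and 3.52 CPM in stroke and 6.32, 12.4 and 14.8 CPM in control (log2 fold change -2.26 ± 0.53 SE, edgeR adjusted p = 0.0143), without overlap. The neuron marker sum of 1487 CPM in stroke and 2958 CPM in control moved with these neuronal genes, and its part in them was not tested. Drd1 and Snap25 are themselves members of that sum.

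Immediate early genes, which neurons and glia switch on after activity or injury, gave 4 that fell and none that rose of 19 (median 0.13). Over all genes tested 4.68% fell, and 11 of the 19 had a log2 fold change above 0. Egr1 had 60.7, 88.4 and 125 CPM in stroke and 161, 185 and 217 CPM in control (log2 fold change -1.09 ± 0.17 SE, edgeR adjusted p = 0.000964). Egr3 had 3.37, 5.47 and 7.38 CPM in stroke and 8.96, 15.2 and 21.1 CPM in control (log2 fold change -1.47 ± 0.24 SE, edgeR adjusted p = 0.00133), and Nr4a1, an orphan nuclear receptor, fell as well (log2 fold change -1.21, edgeR adjusted p = 0.00103). These 3 were without overlap. Fos had 67.9, 82.6 and 95.6 CPM in stroke and 55.5, 72.2 and 88.2 CPM in control and did not pass (log2 fold change 0.19 ± 0.13 SE, edgeR adjusted p = 0.425). The neuron marker sum moved with the genes that fell; its part was not tested.

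Some matrix and protease genes rose, where 5.63% of all genes tested did. Of 19 proteoglycan and scar matrix genes 3 rose (median 0.08), Cd44, Ncan and Fn1. Fn1, fibronectin, had 6.09, 9.85 and 11.0 CPM in stroke and 1.07, 2.08 and 4.59 CPM in control (log2 fold change 1.89 ± 0.33 SE, edgeR adjusted p = 0.00199). Of 19 proteases and inhibitors 7 rose (median 0.51). Plat, tissue plasminogen activator, had 66.9, 132 and 167 CPM in stroke and 31.7, 49.0 and 72.0 CPM in control (log2 fold change 1.25 ± 0.23 SE, edgeR adjusted p = 0.0027). Plaur, the urokinase receptor, had 9.28, 11.6 and 21.4 CPM in stroke and 1.7, 2.75 and 3.41 CPM in control (log2 fold change 2.30 ± 0.24 SE, edgeR adjusted p = 2.83e-05), without overlap. Mmp12, macrophage elastase, had 11.5, 30.0 and 50.1 CPM in stroke and 0.754, 1.52 and 7.66 CPM in control (log2 fold change 3.62 ± 0.56 SE, edgeR adjusted p = 0.000791). With 1 library left out at a time, its log2 fold change was 3.42 to 4.45 (edgeR adjusted p = 4.16e-05 to 0.00282). The highest was that without control 9. Microglia and macrophages also express genes of these lists. Their marker sums moved the same way, at 1601 CPM in stroke and 605 CPM in control for microglia and 19.1 CPM in stroke and 2.81 CPM in control for monocytes and border macrophages; their part in the result was not tested.

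Serpine2, a protease inhibitor of glia also called nexin, had 2030.2, 2516 and 2985 CPM in stroke and 1783, 2563 and 2679 CPM in control (log2 fold change 0.08 ± 0.14 SE, edgeR adjusted p = 0.791). Lrp1, a receptor that clears such inhibitors from the surface, had 320.0, 351 and 769 CPM in stroke and 228, 329 and 1344 CPM in control (log2 fold change -0.40 ± 0.46 SE, edgeR adjusted p = 0.668). Entpd1, the ectonucleotidase Cd39, had 19.0, 23.6 and 26.2 CPM in stroke and 16.7, 18.9 and 23.1 CPM in control (log2 fold change 0.27 ± 0.12 SE, edgeR adjusted p = 0.206). Adora3, an adenosine receptor, had 1.5, 2.54 and 9.35 CPM in stroke and 0.41, 0.912 and 2.91 CPM in control (log2 fold change 1.40 ± 0.55 SE, edgeR adjusted p = 0.141). None of these 4 passed in the edgeR fit of the 12 libraries, and all overlapped. With DESeq2 Adora3 did pass (log2 fold change 1.44, DESeq2 adjusted p = 0.0473). A p that misses the threshold does not show that the groups were alike.

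In the TGF-beta and BMP list 5 of 20 genes rose and none fell (median 0.12), where 5.63% of all genes tested rose. Among the 5 were the genes of a ligand and its receptors. Tgfb1, the ligand, had 5.67, 7.2 and 7.76 CPM in stroke and 1.77, 2.53 and 3.31 CPM in control (log2 fold change 1.49 ± 0.19 SE, edgeR adjusted p = 0.000203). Its receptor gene Tgfbr2 had 36.8, 47.0 and 57.1 CPM in stroke and 8.45, 23.0 and 29.7 CPM in control (log2 fold change 1.18 ± 0.24 SE, edgeR adjusted p = 0.00497), and Tgfbr1 rose by 0.96 (edgeR adjusted p = 0.0022). None of the 3 overlapped. The microglia marker sum moved the same way, at 1601 CPM in stroke and 605 CPM in control, and its part in the result was not tested. Of 18 genes of oxidative stress, metallothioneins and iron 2 rose and 2 fell, and Gpx1, a glutathione peroxidase, had 404, 586 and 854 CPM in stroke and 183, 337 and 449.9 CPM in control (log2 fold change 0.91 ± 0.21 SE, edgeR adjusted p = 0.0143). Of 17 genes of the unfolded protein and integrated stress responses 1 rose and 1 fell, shares near the 5.63% and 4.68% of all genes tested. The one that fell was Asns, asparagine synthetase, with 11.8, 22.1 and 31.9 CPM in stroke and 39.5, 46.2 and 53.6 CPM in control (log2 fold change -1.14 ± 0.21 SE, edgeR adjusted p = 0.00259), without overlap.

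Of the remaining lists, NF-kappa-B genes had 7 of 18 higher and none lower (median 0.65), where 5.63% of all genes tested rose. Only 3 of the 7 calls were kept in each fit that left out 1 library. Genes of the gp130 and STAT3 pathway had 3 of 16 higher (median 0.38), and Osmr, the oncostatin M receptor, had 17.2, 57.9 and 75.0 CPM in stroke and 15.2, 29.1 and 54.1 CPM in control without passing (log2 fold change 0.67 ± 0.36 SE, edgeR adjusted p = 0.294). Secreted regulators of synapses had 2 of 14 higher (median 0.03). Sparc, a secreted matrix protein that acts on synapses, had 963, 1311 and 1579 CPM in stroke and 529.5, 709 and 1006 CPM in control (log2 fold change 0.78 ± 0.17 SE, edgeR adjusted p = 0.00978), and overlapped.

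The stroke effect in astrocytes was set against that in the OPC libraries (6 stroke, 6 control), the EC libraries (7 and 5) and the pericyte libraries (8 and 7) by an interaction term in 1 edgeR fit of 51 libraries. In it a value is the astrocyte log2 fold change minus that of the other cell type. Against OPC, 360 of 25257 genes passed (1.43%), 78 with a higher (0.309%) and 282 with a lower effect in astrocytes (1.12%). This split moved with the scaling: it was 144 and 214 with relative log expression (RLE) scaling, while the median difference of all genes was -0.11 in the first and -0.01 in the second. Of the pan-reactive genes 5 of 13 had a lower effect in astrocytes, of the A1 set 5 of 11 and of the A2 set 6 of 12, with the same 3 counts under RLE scaling and 7, 5 and 6 with library totals alone. Of the genes named next, Fos, C4b, Ccnd1 and Aqp4 had the smallest p of the list members in this same test. Cd44 and Gfap were chosen after their values were seen. The p-values printed for them are therefore not independent of the choice.

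Gfap averaged 27332 ± 9869 CPM in stroke and 20067 ± 8500 CPM in control astrocyte libraries, and 1343 ± 804 CPM in stroke and 117 ± 52.8 CPM in control OPC libraries (SD). The effects, 0.45 in astrocytes and 3.53 in OPC, differed by -3.08 ± 0.51 SE (edgeR adjusted p = 0.000246). Aqp4 differed by -2.98 ± 0.45 (edgeR adjusted p = 5.58e-05) and C4b by -3.30 ± 0.46 (edgeR adjusted p = 1.03e-05). Cd44 differed by -4.14 ± 0.69 (edgeR adjusted p = 0.000243), with an effect of 1.30 in astrocytes and 5.44 in OPC. Fos had an effect of 0.14 in astrocytes and 2.87 in OPC (difference -2.73 ± 0.35, edgeR adjusted p = 3.17e-06). Ccnd1 had the higher effect in astrocytes, with 2.13 in astrocytes and -0.02 in OPC (difference 2.15 ± 0.32, edgeR adjusted p = 4.88e-05); its OPC level was 230.3 ± 34.0 CPM in stroke and 233 ± 20.7 CPM in control. Beside these values, astrocyte markers in the OPC libraries summed to 3723 ± 578 CPM in stroke and 3059 ± 297 CPM in control, and 6 of the 16 had a lower effect in astrocytes. Microglia markers in the OPC libraries summed to 753 ± 207 CPM in stroke and 144 ± 31.2 CPM in control (SD, n = 6 each). The part of both marker lists in the result was not tested.

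Against EC, 12 genes passed (0.0475%), 8 higher (0.0317%) and 4 lower (0.0158%), while 135 did in a fit of those 2 cell types alone. List members among them were Ccnd1, Ltbp2, whose mean level in astrocytes was under 1 CPM, and Anxa3. Ccnd1 had an effect of 2.13 in astrocytes and 0.37 in EC (difference 1.77 ± 0.32, edgeR adjusted p = 0.0124). Anxa3 had an effect of 2.28 in astrocytes and 0.47 in EC (difference 1.82 ± 0.39, edgeR adjusted p = 0.048, and 0.0655 with library totals alone).

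Against pericytes, 1623 genes passed (6.43%), 503 with a higher (1.99%) and 1120 with a lower effect in astrocytes (4.43%). With library totals alone the split was 963 and 735, and the median difference of all genes was 0.28 in place of 0.09. Hypoxia and glycolysis genes had a lower effect in astrocytes in 14 of 19 cases, and in 13 under either other scaling. Egln3, a hydroxylase that hypoxia induces, had an effect of -0.01 in astrocytes and 3.49 in pericytes (difference -3.50 ± 0.37, edgeR adjusted p = 6.53e-09), and Ero1l, which helps form disulfide bonds, differed by -2.70 ± 0.28 (edgeR adjusted p = 7.13e-09). Inhba, a subunit of activin, differed by -3.48 ± 0.30 (edgeR adjusted p = 1.57e-11). Inhba, Egln3 and Ero1l had the smallest p of the list members in this same test. Asns and Igfbp2 were chosen after their values were seen. Their p-values are therefore not independent of the choice. Asns differed by -1.78 ± 0.22 (edgeR adjusted p = 2.01e-07), with an effect of -1.19 in astrocytes and 0.59 in pericytes. Igfbp2 had an effect of 3.79 in astrocytes and -0.38 in pericytes (difference 4.17 ± 0.53, edgeR adjusted p = 3.03e-07). Its pericyte level was 577 ± 286 CPM in stroke and 750.3 ± 293 CPM in control, while the astrocyte level was 641 ± 233 CPM in stroke and 46.4 ± 53.7 CPM in control. In the pericyte libraries microglia markers summed to 2560 ± 604 CPM in stroke and 792 ± 431 CPM in control, and neuron markers to 731 ± 357 CPM in stroke and 1796 ± 661 CPM in control (SD, n = 8 and 7). In the same scaling the astrocyte libraries had 1794 ± 232 CPM in stroke and 702 ± 113 CPM in control for microglia markers; their part in the result was not tested.

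**Figure D5:**
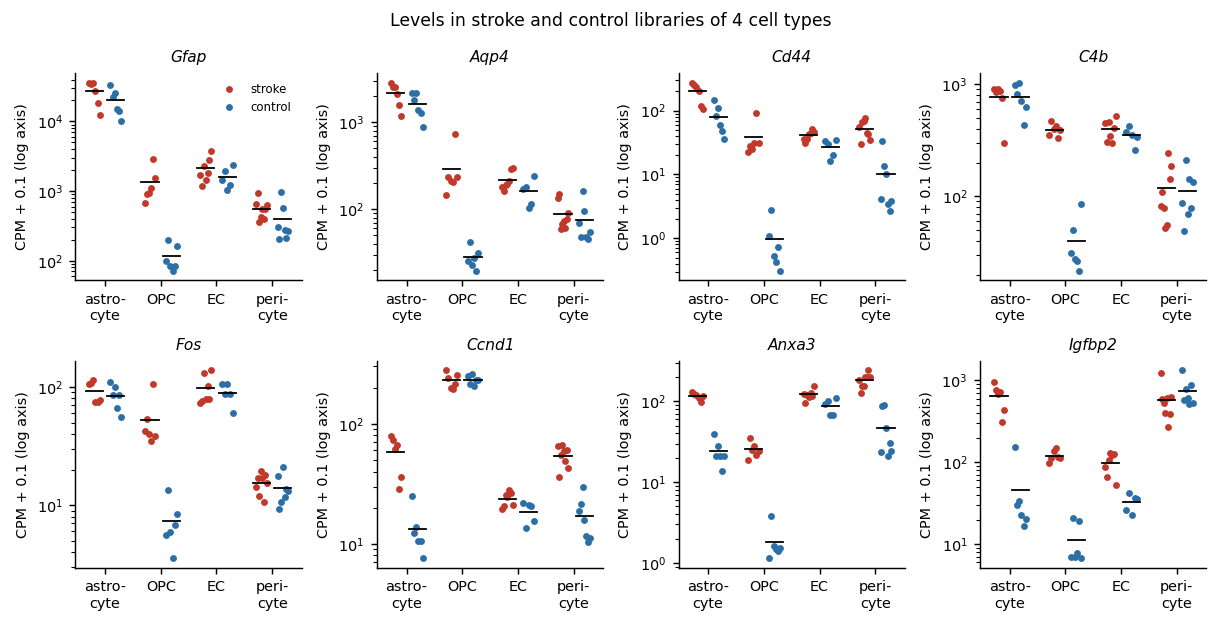
CPM + 0.1 on a log axis of 8 genes in the libraries of 4 cell types, stroke (red) left of control (blue), with the mean of each group as a bar. Gfap, Aqp4, Cd44 and C4b have a larger fold change in OPC than in astrocytes, from lower control levels in OPC. Ccnd1 differs in astrocytes and not visibly in OPC, and Igfbp2 differs in astrocytes while its pericyte groups overlap.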

How the data were processed

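Total RNA of labelled astrocyte samples was extracted with NucleoSpin RNA XS and made into libraries with the SMART-Seq v4 kit, per the labels' protocols; the kit does not mark strand, so overlapping and antisense genes cannot be told apart. The deposited values are whole-number read counts per gene, not normalized. The submitters' processing notes name bcl2fastq 2.20, STAR, HTSeq and GRCm38. The library names in the labels begin with hisat, the name of another aligner. Which aligner made the counts could not be told. All 37 mitochondrial genes were at 0 in every library, and 233 of 52636 genes had no symbol (at most 0.0124% of counts).

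From the deposited counts, edgeR 4.0.16 (R 4.3.3) fitted stroke against control in the 12 libraries with TMM scaling, filterByExpr and the quasi-likelihood test, with Benjamini-Hochberg adjustment over 18796 genes at 0.05. A second fit of 51 libraries of 4 cell types, with the counts of each table as deposited, tested differences between stroke effects. Alternatives used DESeq2 1.42.0, limma 3.58.1, other scalings, other filters and each library left out. The test was checked on simulated data. Of 576 genes in 39 lists, 546 passed the filter. The members and lists were chosen with earlier results of these data known. Named genes are list members, the 15 largest increases and decreases by fold with a mean of at least 10 CPM, the 8 largest by difference in mean CPM, the leading interaction genes, and Serpine2, Lrp1, Entpd1 and Adora3; a part of them is given. The 26 microglia libraries were not used here. Promoters are RefSeq's, matched by symbol. Some genes are not reported here.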

Additional observations from a re-analysis of the deposited data

Results flagged for a closer look

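In 32 of 234 groups of 6 libraries (13.7%), the highest or the lowest library stood apart from the other 5 by Dixon's criterion at the 95% level; chance marks about 5% of such groups. The criterion marked stroke 12 in 14 groups and control 1 in 10, and the other libraries in fewer. Stroke 12 stood above the other stroke libraries with 31.3 CPM for Igf1, 31.8 CPM for Hk2, 62.8 CPM for Ifi27l2a, 35.4 CPM for Ch25h, 306 CPM for Tyrobp, 21.2 CPM for Ms4a7, 23.2 CPM for Ccl3, 19.6 CPM for Ccl4, 29.8 CPM for Ccl12, 3306 CPM for Tmsb4x, 21.4 CPM for Plaur, 9.35 CPM for Adora3 and 37.3 CPM for summed monocyte and border macrophage markers. Stroke 12 stood below the other stroke libraries with 288 CPM for C4b. Stroke 11 stood below the other stroke libraries with 952 CPM for Glul. Stroke 8 stood below the other stroke libraries with 4.68 CPM for summed lymphocyte markers. Control 1 stood above the other control libraries with 46.1 CPM for Lcn2, 125 CPM for Igfbp2, 27.6 CPM for Igfbp3, 105 CPM for Fabp7, 26.2 CPM for H2-Ab1, 67.4 CPM for Cd74, 10.2 CPM for Syt15, 19.9 CPM for Ccnd1, 70.6 CPM for Spp1 and 55.0 CPM for Gpnmb. Control 6 stood above the other control libraries with 19.3 CPM for Irf7, 4.35 CPM for Oas1a and 2.7 CPM for Mx1. Control 9 stood above the other control libraries with 7.66 CPM for Mmp12. Control 9 stood below the other control libraries with 58.7 CPM for summed pericyte and smooth muscle markers. Control 10 stood above the other control libraries with 2.23 CPM for Cd163.

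The stroke effect in astrocytes differed from that in another cell type by the interaction test of edgeR for these genes, as differences of log2 fold changes, astrocyte minus the other type. Against OPC the difference was -2.73 for Fos, -3.30 for C4b, 2.15 for Ccnd1, -2.98 for Aqp4, -4.14 for Cd44 and -3.08 for Gfap. Against EC the difference was 1.77 for Ccnd1 and 1.82 for Anxa3. Against pericyte the difference was 4.17 for Igfbp2, -3.48 for Inhba, -3.50 for Egln3, -2.70 for Ero1l and -1.78 for Asns.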

How the results depend on the processing

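Of 105 named genes, 84 passed, and every one of those 84 kept its direction under all 22 other settings. Cxcl10 lost its call within libraries 1 to 8 and in 5 of the fits that left out 1 library. In the fit of libraries 9 to 12 alone, with 2 libraries in each group, 51 of the 84 did not pass, and the counts of genes were 214 higher and 19 lower. Leaving out 1 library at a time gave 879 to 1125 higher and 500 to 1095 lower genes. Higher and lower genes numbered 1446 and 1237 with DESeq2, 1149 and 1034 with limma voom, 1084 and 808 with RLE scaling, 1176 and 703 with library totals alone, 1004 and 679 with no filter, 1124 and 820 with a mean of at least 1 CPM, 1308 and 1172 with the number class as a covariate, 1206 and 1293 in libraries 1 to 8, and 1227 and 776 without control 1 and stroke 12. Of genes that did not pass, C4b changed sign without control 9 and without stroke 8, with log2 fold changes of -0.040 to 0.23 over the fits that left out 1 library, and Serpine2 changed sign in libraries 9 to 12 (-0.044). The cause was not tested. Of 21 named genes that did not pass, 9 passed under another setting.

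The count of genes whose effect differed from OPC was 360, with 228 under limma voom and 795 in a fit of the 2 cell types alone. Against EC it was 12, with 5 under library totals alone, 19 with a mean of at least 1 CPM and 135 with the 2 cell types alone. Against pericytes it was 1623, with 570.0 with the 2 cell types alone. The split into higher and lower moved with the scaling: 101 and 410.0 against OPC with library totals alone, and 803 and 859 against pericytes with RLE scaling.

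No paired analysis was possible because the stroke and control libraries carry different numbers. The number classes, the fit without control 1 and stroke 12, and the fits within classes were added after seeing the data. Libraries numbered 1 to 8 and 9 to 12 are called classes only by their numbers; no label says what sets them apart. At this depth, genes under the count filter were not tested.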

Other observations

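Further members of the disease-associated microglia list that rose were Lpl, Gpnmb and Spp1, chosen after their values were seen. Lpl, lipoprotein lipase, had 71.5, 82.0 and 162 CPM in stroke and 11.0, 15.4 and 18.7 CPM in control libraries (log2 fold change 2.67 ± 0.21 SE, edgeR adjusted p = 4.45e-06). Gpnmb, a transmembrane glycoprotein of phagocytes, had 126, 147 and 201 CPM in stroke and 12.0, 20.0 and 55.0 CPM in control (log2 fold change 2.68 ± 0.32 SE, edgeR adjusted p = 0.000115). Spp1, osteopontin, had 85.1, 107 and 148 CPM in stroke and 13.3, 15.1 and 70.6 CPM in control (log2 fold change 2.21 ± 0.41 SE, edgeR adjusted p = 0.00284). None of the 3 overlapped, and control 1 was the highest control of Gpnmb and Spp1. With 1 library left out at a time, the log2 fold change of Spp1 was 2.09 to 2.92 (edgeR adjusted p = 3.12e-06 to 0.00861). The highest was that without control 1. The microglia marker sum moved with them, and its part was not tested.

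Collagen genes of fibroblasts were low in both groups. Col3a1 had 2.58, 4.54 and 7.66 CPM in stroke and 0, 0.269 and 0.435 CPM in control (log2 fold change 4.40 ± 0.68 SE, edgeR adjusted p = 0.000769). Col1a1 had 2.91, 3.89 and 5.5 CPM in stroke and 1.37, 1.87 and 2.51 CPM in control (log2 fold change 1.09 ± 0.22 SE, edgeR adjusted p = 0.00504). Neither overlapped, while the summed fibroblast markers did, at 101 to 149.7 CPM in stroke and 88.2 to 124 CPM in control. Among the neuronal genes that fell, Hpca, the calcium sensor hippocalcin, had 89.1, 135 and 174 CPM in stroke and 268, 340.2 and 500.4 CPM in control (log2 fold change -1.48 ± 0.19 SE, edgeR adjusted p = 0.000203), and Scn4b, a sodium channel subunit, had 4.75, 24.0 and 29.6 CPM in stroke and 65.2, 80.8 and 137 CPM in control (log2 fold change -2.07 ± 0.35 SE, edgeR adjusted p = 0.00146).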
